A study of Tremella fuciformis and Annulohypoxylon stygium and Tremella fuciformis
Annulohypoxylon stygium with 5 samples.

Results

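The genes described here were those of Tremella fuciformis, the white jelly fungus, compared between a mixture of its mycelia with those of Annulohypoxylon stygium (the dual library) and its own mycelia after contact with that fungus. A de novo assembled sequence, or unigene, was counted as T. fuciformis when its larger value in the 2 libraries of T. fuciformis without A. stygium was at least 1 FPKM (fragments per kilobase per sequencing yield, so that levels of genes of different length can be compared) and at least 10 times its larger value in the 2 libraries of A. stygium without T. fuciformis. This gave 15354 of 42507 unigenes. Contigs of 1 assembly cluster were summed, which left 8930 genes, of which 8587 reached 1 FPKM in either library compared. All libraries were of wild-type mycelia and each condition had 1 library. The dual library was taken 1 week after both fungi had met, and the library after contact came from T. fuciformis mycelia 1 week after interaction with A. stygium. T. fuciformis grown alone, 2 weeks old, is given beside them as a level and entered no ratio. A. stygium alone at 1 week and A. stygium 1 week after interaction served only to assign unigenes. The sources used here do not say how old the interacting mycelia were in all, how they were mixed or parted, or whether cultures were pooled. With 1 library per condition there is no replicate error, so every ratio describes these libraries only and no p-value is given.

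T. fuciformis is a basidiomycete that lives on wood together with A. stygium, an ascomycete that decays the wood, and it is cultivated for food with this companion. Its mycelium makes an acidic mannose-rich polysaccharide and depends for much of its nutrition on the companion. Fungi in contact with other fungi or with their secreted compounds commonly express oxidoreductases, which reduce or oxidize aldehydes, ketones and quinones, glutathione- and thioredoxin-dependent enzymes, which remove peroxides and reactive compounds, and membrane pumps that export them.

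In the dual library 36.4% of the summed FPKM of 599253 belonged to T. fuciformis unigenes and 59.0% to A. stygium unigenes, whereas in the library after contact 99.2% of 657997 was T. fuciformis. The values were therefore rescaled so that T. fuciformis unigenes summed to 1000000 in each library, and all levels given here are on this rescaled FPKM. On it, 1 FPKM was a level of 4.58 in the dual library, 1.53 after contact and 1.57 alone, so a low value was measured more coarsely in the dual library. A level is a share of T. fuciformis transcript, and fewer T. fuciformis cells or less RNA per cell cannot be told apart in it. The ratio was log2 of (dual level + 1) over (level after contact + 1), and every fold below is on that scale, which understates the change of low genes. Without the rescaling the median log2 ratio of all genes was -1.54 rather than -0.17, and 79 genes rather than 287 were 4-fold higher while 1173 rather than 225 were 4-fold lower, so directions below hold relative to the T. fuciformis total. The nearest database protein came from the Tremellomycetes, the class of T. fuciformis, for 84.9% of the genes with such a hit, and from the Xylariales, the order of A. stygium, for 0.266%. Both were counted by fixed lists of genera, so hits in other genera fall in neither. Read depth is unknown.

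The T. fuciformis transcriptome was alike in both libraries for most genes and differed by large factors for a minority. Of 8587 genes, 6958 (81.0%) lay within 2-fold, with a median log2 ratio of -0.17 and quartiles of -0.48 and 0.22. Genes are called 4-fold or 2-fold higher or lower here when their ratio was that large or larger. In the dual mycelia 287 genes were 4-fold higher, 3.34% of those compared, and 225 were 4-fold lower, or 2.62%. At 2-fold, 725 (8.44%) were higher and 904 (10.5%) lower. The 287 higher genes together took 0.858% of T. fuciformis FPKM after contact, 0.999% alone and 8.77% in the dual library. The 225 lower genes took 1.66% after contact, 0.748% alone and 0.363% in the dual library.

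**Figure D1:**
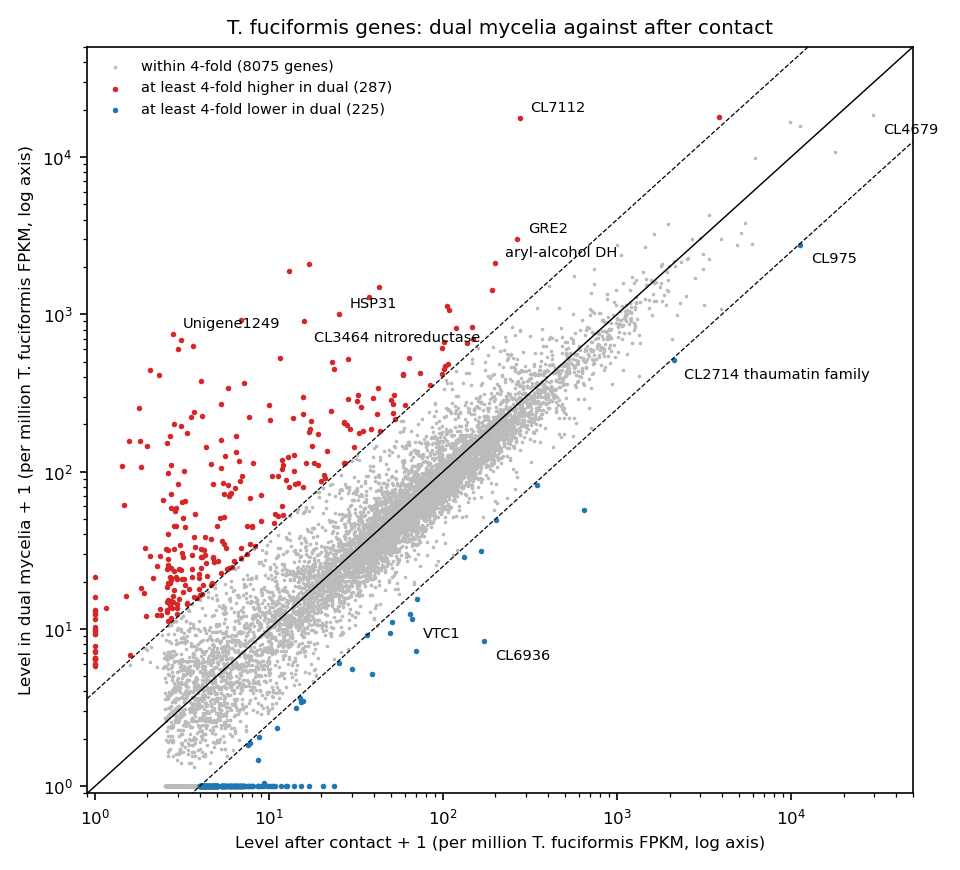
Level of each of 8587 T. fuciformis genes after contact (x axis) and in the dual library (y axis), both as rescaled FPKM with 1 added, on log axes. The solid line marks equal levels and the dashed lines 4-fold; 287 genes lie above the upper dashed line, among them CL7112 at 17627 in the dual library, and 225 at or below the lower one, most of them at the foot of the plot where the dual value was 0.

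The higher and lower genes differed in how well they were measured. Of the 225 lower genes, 197 were listed at 0 in the dual library and 120 were under 3 FPKM in both libraries, while of the 287 higher genes 38 were under 3 FPKM in both. Among the 6110 genes that reached 10 FPKM in either library, 156 (2.55%) were 4-fold higher and 21 (0.344%) 4-fold lower, and 5558 (91.0%) lay within 2-fold. With a pseudocount of 10 in place of 1, 141 of all genes were 4-fold higher and 6 lower. At 2-fold the genes that reached 10 FPKM gave 363 higher (5.94%) and 189 lower (3.09%). Genes with 1 unigene assigned to T. fuciformis made up 212 of the 225 lower genes (94.2%), 219 of the 287 higher ones (76.3%) and 59.7% of all genes. Some of these, such as CL4894, were assembly clusters of which only 1 contig was so assigned. No hit in 5 databases was found for 56.0% of the lower genes, 40.4% of the higher and 15.7% of all. Whether fragmentary or ill-assembled sequences give these calls was not tested.

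**Figure D2:**
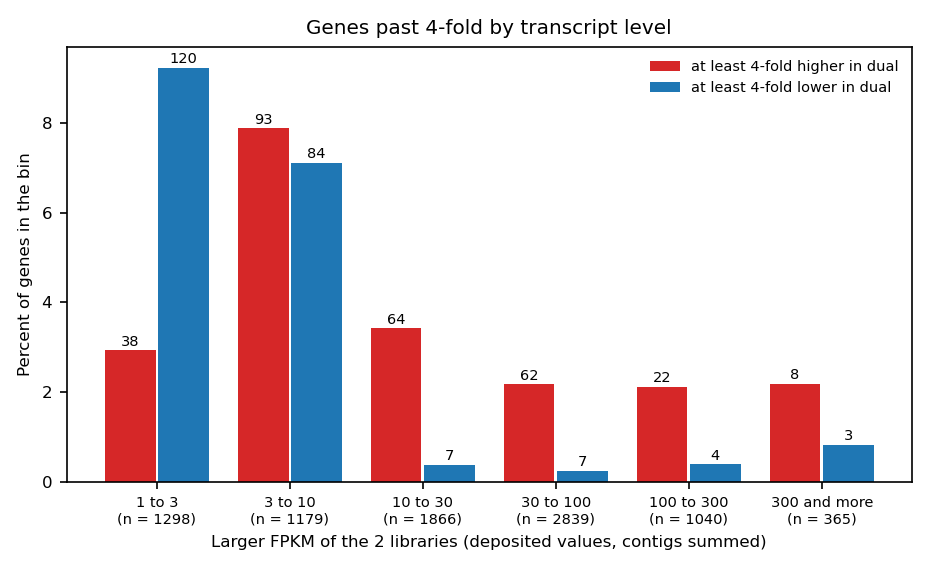
Percent of T. fuciformis genes 4-fold higher (red) or lower (blue) in the dual library, in bins of the larger FPKM of the 2 libraries, with the number of genes above each bar and the genes in each bin below it. Of the 225 lower genes 120 fall in the lowest bin and 84 in the next, and from 10 FPKM upward the higher genes outnumber the lower in every bin.

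The gene with the largest gain in transcript was CL7112, which carries a domain of the NAD-dependent epimerase and dehydratase family, enzymes that use NAD(P) to modify nucleotide sugars or reduce carbonyl groups. Its level was 219 alone, 276 after contact and 17627 in the dual mycelia, a log2 ratio of 5.99. Both contigs of the cluster showed the difference, from 133 to 8653 and from 143 to 8973. It was the third most abundant T. fuciformis gene in the dual library. A second gene with the same domain, Unigene3503, had a level of 20.2 alone, 12 after contact and 1894 in the dual mycelia and a log2 ratio of 7.19, and the alone and after-contact libraries were both low.

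Several of the largest ratios belonged to genes with no informative name, and their use in the cell is not known from the table. Of 561 such genes with at least 100 FPKM, 20 were 4-fold higher and 7 were 4-fold lower in the dual library. Among all 1405 genes of that abundance, named or not, 30 (2.14%) were 4-fold higher and 7 (0.498%) 4-fold lower. Unigene1249, with no hit in the 5 databases, had the highest ratio of all T. fuciformis genes, with a level of 0.802 alone, 1.79 after contact and 746 in the dual mycelia and a log2 ratio of 8.06. CL7435 and Unigene2090, also without a hit, had dual levels of 685 and 603 and log2 ratios of 7.78 and 7.66, and the T. fuciformis libraries without the companion put both at 2.11 or less. Unigene611, whose nearest protein is an unnamed one of Tremella, had a level of 8.11 alone, 15.9 after contact and 2073 in the dual mycelia, a log2 ratio of 6.94. CL6392, of the alpha/beta hydrolase family, which holds esterases and lipases, had a level of 0.22 alone, 10.6 after contact and 524 in the dual mycelia and a log2 ratio of 5.50.

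On the lower side, CL975, with no database hit, was the third most abundant gene after contact and had a level of 5368 alone, 11306 after contact and 2774 in the dual mycelia, a log2 ratio of -2.03. All but a small part of that level came from 1 of its 2 contigs, and the other contig had a log2 ratio of 0.68 at a dual level of 6.64. CL2714, of the thaumatin family, small secreted proteins some of which bind or cleave beta-glucans, had a level of 314 alone, 2114 after contact and 512 in the dual mycelia and a log2 ratio of -2.04. For CL6936, whose nearest protein is an unnamed one of Ustilago, the level was 33.7 alone, 171 after contact and 7.38 in the dual mycelia and the log2 ratio -4.36. CL975, CL2714 and CL6936 were each higher after contact than alone and lower in the dual library than after contact, while CL6936 and CL975 ended below their level alone and CL2714 above it.

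Several of the highest ratios of described genes belonged to enzymes that reduce or oxidize carbonyl groups. The list of alcohol and aldehyde dehydrogenases and carbonyl reductases held 54 genes with a median log2 ratio of 0.19 against -0.17 for all genes. Of these, 13 were 2-fold higher, against 8.44% of all genes, and 7 were 2-fold lower, against 10.5%. At 4-fold, 7 were higher, against 3.34% of all genes, and 2 lower, against 2.62%. The list's summed level was 2916 alone, 3826 after contact and 7938 in the dual library. Among the 30 members with at least 10 FPKM, 7 were 2-fold higher, against 5.94% of all such genes, and 0 were 2-fold lower, against 3.09%.

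Unigene8456, an aryl-alcohol dehydrogenase, an enzyme that interconverts aromatic alcohols and aldehydes with NADP, was the most abundant of the list, with a level of 30.9 alone, 197 after contact and 2115 in the dual mycelia and a log2 ratio of 3.42. CL3464, a nitroreductase, a flavin enzyme that reduces nitro compounds and quinones, had a level of 2.7 alone, 14.8 after contact and 904 in the dual mycelia and a log2 ratio of 5.84. CL3847, an aldehyde reductase, had a level of 18.7 alone, 21.9 after contact and 493 in the dual mycelia and a log2 ratio of 4.43. In each of these the dual library stood far above the other 2 libraries, and for the dehydrogenase and the nitroreductase the library after contact also stood above the one alone. Unigene4052, an alcohol dehydrogenase, had a level of 5.31 alone, 14.7 after contact and 297 in the dual mycelia and a log2 ratio of 4.24. CL7659, an aldo/keto reductase, had a level of 4.24 alone, 10.9 after contact and 118 in the dual mycelia, a log2 ratio of 3.32. CL2486, an aldehyde dehydrogenase, which oxidizes aldehydes to acids, had a level of 50.7 alone, 41 after contact and 339.9 in the dual mycelia, a log2 ratio of 3.02. Not every member was higher: a second aryl-alcohol dehydrogenase, CL5503, had a level of 16.6 alone, 30.5 after contact and 15.4 in the dual mycelia and a log2 ratio of -0.94.

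Genes outside the list that act on carbonyl compounds or are named as oxidoreductases were also high in the dual library. Unigene5609, named for GRE2, which in yeast reduces methylglyoxal and other aldehydes and ketones, had a level of 151 alone, 266 after contact and 2990.2 in the dual mycelia and a log2 ratio of 3.49. Unigene3062, named for HSP31, which in yeast is a glyoxalase and chaperone of the DJ-1 family, had a level of 3.16 alone, 24.2 after contact and 1005 in the dual mycelia and a log2 ratio of 5.32. Both enzymes act on methylglyoxal, a toxic by-product of sugar breakdown, and were placed together after their values were seen. The other members of this group of 4, a further pair named for GRE2 (CL3536 and Unigene304), lay within 2-fold, with log2 ratios of 0.63 and -0.38. Unigene14337, a putative oxidoreductase, had a level of 3.87 alone, 6.13 after contact and 367 in the dual mycelia, and CL2994, a reductase named for FabG of bacterial fatty acid synthesis, one of 7.98 alone, 6.69 after contact and 222 in the dual mycelia. Their log2 ratios were 5.69 and 4.86.

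**Figure D3:**
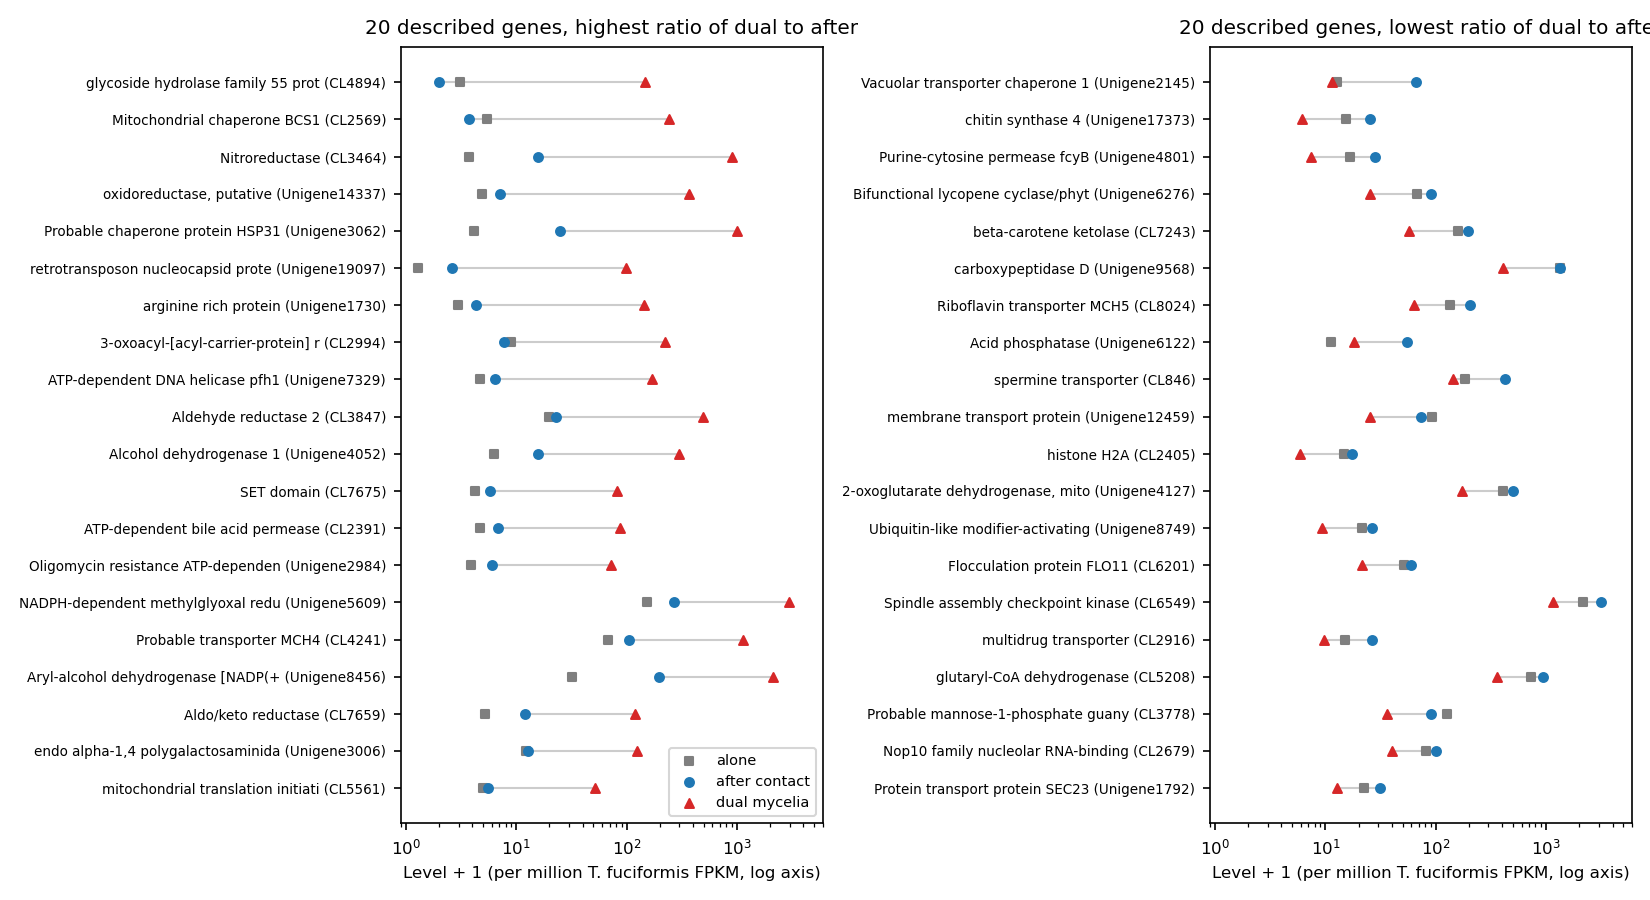
Levels, as rescaled FPKM with 1 added (log axis), of the 20 described genes with the highest and the 20 with the lowest ratio of dual to after contact among those with at least 10 FPKM, in the library alone (square), after contact (circle) and dual (triangle). The ratios run from 6.21 to 3.22 on the left and from -2.53 to -1.30 on the right (log2), and for most genes of the left panel the alone and after-contact points lie close together beside a distant dual point.

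The list of peroxide, superoxide and thiol defence, which also held the alternative oxidase, a respiratory enzyme, had the highest median of the 37 lists. Of 26 members, 9 were 2-fold higher and 0 were 2-fold lower, against 8.44% and 10.5% of all genes, and the median log2 ratio was 0.51. With at least 10 FPKM, 8 of 24 were 2-fold higher and 0 lower, against 5.94% and 3.09% of all such genes. The summed level was 5839 alone, 6371 after contact and 7854 dual.

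Unigene8344, the alternative oxidase, a mitochondrial enzyme that passes electrons to oxygen without pumping protons, had a level of 187 alone, 103 after contact and 384 in the dual mycelia, a log2 ratio of 1.89. CL8008, a glutathione peroxidase, had a level of 101 alone, 55.8 after contact and 177 in the dual mycelia and a log2 ratio of 1.65. For both of these, and for the next, the level was lower after contact than alone and highest in the dual library. CL8028, thioredoxin reductase, which supplies electrons to thioredoxin, had a level of 156 alone, 106 after contact and 244 in the dual mycelia and a log2 ratio of 1.20. Unigene5430, a catalase-peroxidase, took another course, with a level of 15.6 alone, 120.1 after contact and 252 in the dual mycelia and a log2 ratio of 1.06, so it was higher at each step. The most abundant member, the mitochondrial manganese superoxide dismutase Unigene10234, had a level of 697 alone, 1169.5 after contact and 867 in the dual mycelia, a log2 ratio of -0.43, and so was not among the higher ones.

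Glutathione enzymes were few and uneven. Of 6 members of the list of glutathione transferases and detoxification, 1 was 4-fold higher and 1 was 4-fold lower, against 3.34% and 2.62% of all genes. Unigene9249, a glutathione S-transferase, which joins glutathione to reactive compounds, had a level of 34.6 alone, 33.4 after contact and 181 in the dual mycelia and a log2 ratio of 2.40. A pair of 5-oxoprolinases, which return glutamate from the breakdown of glutathione and were picked out after their values were seen, was higher too. Their group of 18 genes of 5-oxoprolinases and glutathione metabolism had 4 members 2-fold higher and 3 members 2-fold lower, against 8.44% and 10.5% of all genes. The other 11 lay within 2-fold. At 4-fold, 3 were higher and 1 was lower, against 3.34% and 2.62%. Unigene6778 had a level of 23 alone, 99.7 after contact and 449 in the dual mycelia and Unigene2459 one of 16.5 alone, 51 after contact and 304 in the dual mycelia, with log2 ratios of 2.16 and 2.55, and both were also higher after contact than alone.

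Among export pumps a few single genes stood out while most did not. In the group of ATP-binding cassette transporters, chosen after values were seen, 6 of 25 were 2-fold higher, against 8.44% of all genes, of which 4 were 4-fold higher, against 3.34%, and 2 were 2-fold lower, against 10.5%. The median log2 ratio was -0.13. CL796, named for YCF1, which in yeast moves glutathione conjugates and metals into the vacuole, had a level of 122 alone, 147 after contact and 691 in the dual mycelia and a log2 ratio of 2.22, and its 4 contigs had log2 ratios from 1.25 to 2.87. CL2391, a bile acid permease by name, had a level of 3.69 alone, 5.81 after contact and 85.9 in the dual mycelia and a log2 ratio of 3.68. Unigene2984, named for YOR1, a yeast pump of the plasma membrane that exports oligomycin and other organic anions, had a level of 2.86 alone, 5.01 after contact and 71.9 in the dual mycelia and a log2 ratio of 3.60. CL1809, named for abc2, had a level of 12.2 alone, 19.6 after contact and 94.3 in the dual mycelia and a log2 ratio of 2.21.

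The separate list of drug efflux transporters had 17 members. Of these, 1 was 2-fold higher and 6 were 2-fold lower, against 8.44% and 10.5% of all genes. The median log2 ratio was -0.24, against -0.17 for all genes. Among the 11 members with at least 10 FPKM, 1 was 2-fold higher and 3 lower, against 5.94% and 3.09% of all such genes. Unigene13226, an efflux protein named for EncT, had a level of 165 alone, 106 after contact and 485 in the dual mycelia and a log2 ratio of 2.18. CL7237, an efflux pump and the most abundant member, had a level of 225 alone, 527 after contact and 219 in the dual mycelia and a log2 ratio of -1.26, so that the dual library was back near the level alone. CL2916, a multidrug transporter, had a level of 14.1 alone, 25.3 after contact and 8.61 in the dual mycelia, a log2 ratio of -1.45.

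Sugar transporters were spread in both directions. Of 70 members, 9 were 2-fold higher and 12 were 2-fold lower, against 8.44% and 10.5% of all genes, and the median log2 ratio was -0.13. Most of the lower members were under 10 FPKM. Among the 23 with at least 10 FPKM, 3 were 2-fold higher and 1 lower, against 5.94% and 3.09% of all such genes. Unigene4682, named for HXT3, a yeast low-affinity glucose carrier, had a level of 107 alone, 72.4 after contact and 424 in the dual mycelia, a log2 ratio of 2.53. Unigene12681, named for HXT10, another yeast hexose carrier, had a level of 21 alone, 39.1 after contact and 141 in the dual mycelia and a log2 ratio of 1.82. The most abundant member, the galactose transporter CL1021, had a level of 550.0 alone, 953 after contact and 1204 in the dual mycelia and a log2 ratio of 0.34. CL6985, a lactose permease by name, had a level of 340.4 alone, 496 after contact and 238 in the dual mycelia and a log2 ratio of -1.06, so the dual library was the lowest of the 3.

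Carriers of other small molecules differed gene by gene. CL4241, named for the yeast monocarboxylate-like carrier MCH4, had a level of 67.5 alone, 104 after contact and 1131 in the dual mycelia and a log2 ratio of 3.43. Its second contig reached a level of only 1.70 after contact and was listed at 0 in the dual library. CL8024, named for MCH5, which takes up riboflavin in yeast, had a level of 132 alone, 203 after contact and 62.2 in the dual mycelia, a log2 ratio of -1.69, the opposite direction within the same carrier family. CL846, a spermine transporter by name, had a level of 185 alone, 427 after contact and 142 in the dual mycelia, a log2 ratio of -1.58. Its listed domain is that of raffinose synthase or seed imbibition protein Sip1, so the name may not describe it. Of 36 transporters of amino acids, peptides and nitrogen compounds, 2 were 2-fold higher and 7 were 2-fold lower, against 8.44% and 10.5% of all genes. Among the 20 with at least 10 FPKM, 1 was 2-fold higher and 2 were lower, against 5.94% and 3.09% of all such genes. The peptide transporter Unigene9614 had a level of 67.7 alone, 149.8 after contact and 67.2 in the dual mycelia and a log2 ratio of -1.15.

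**Figure D4:**
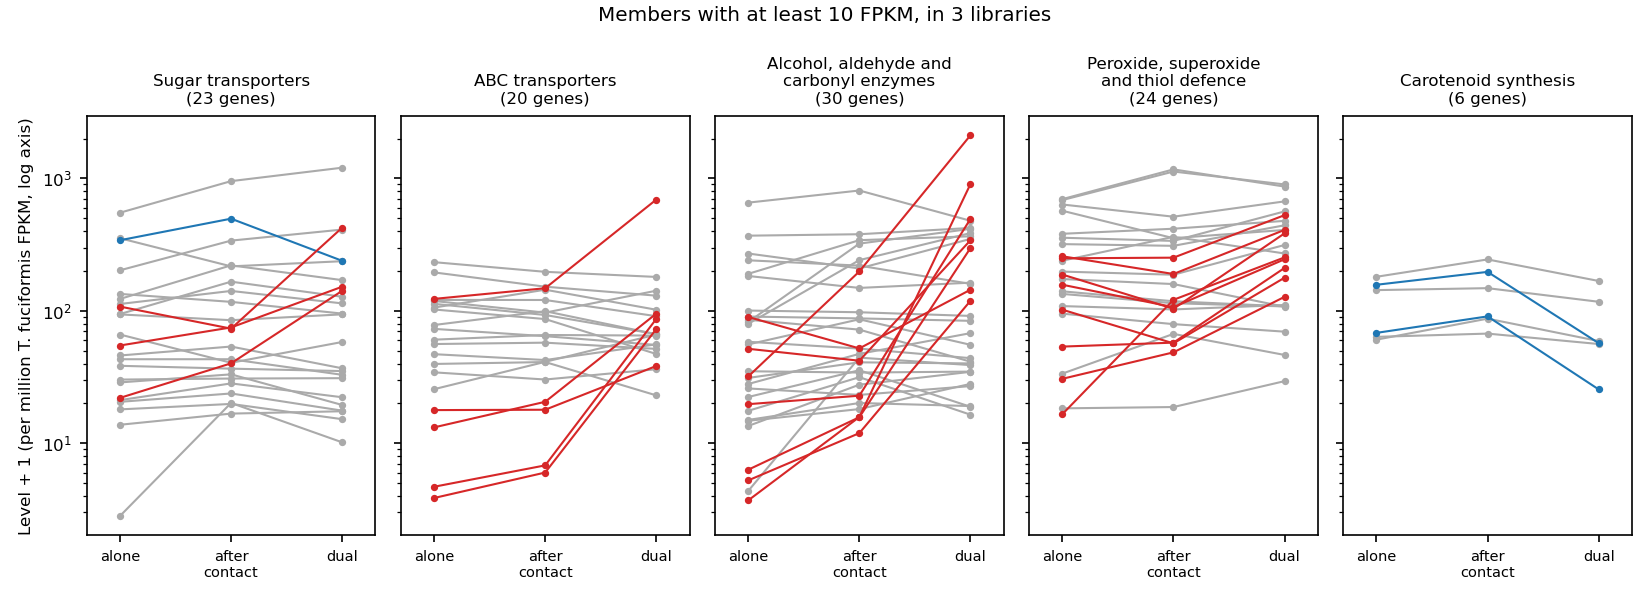
Levels of members with at least 10 FPKM of 5 gene lists or groups in T. fuciformis alone, after contact and in the dual library, as rescaled FPKM with 1 added, on a log axis with 1 line per gene. Red lines are genes 2-fold higher and blue lines 2-fold lower in dual than after contact. Red lines number 3 of 23 sugar transporters, 5 of 20 ATP-binding cassette transporters, 7 of 30 alcohol, aldehyde and carbonyl enzymes and 8 of 24 peroxide and thiol defence genes, while carotenoid synthesis has 2 blue lines of 6. Of all genes with at least 10 FPKM, 5.94% were 2-fold higher and 3.09% 2-fold lower.

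Protein folding genes as a list did not stand apart, but a few members did. The list of heat shock proteins and folding held 62 genes found by the words of their names, with a median log2 ratio of -0.17, the same as all genes, and 8 were 2-fold higher and 1 was 2-fold lower, against 8.44% and 10.5% of all genes. Of the 3 members 4-fold higher, against 3.34% of all genes, 2 were named for BCS1, an ATPase of the inner mitochondrial membrane that assembles respiratory complex III, and the third was Unigene3062 (HSP31), described above. CL2569 had a level of 4.45 alone, 2.71 after contact and 239 in the dual mycelia and CL6191 one of 1.79 alone, 2.25 after contact and 101 in the dual mycelia, with log2 ratios of 6.02 and 4.96. The BCS1 group, chosen after its values were seen, had 4 members in all, and the others lay within 2-fold. CL3049, a copper chaperone, which carries copper within the cell, had a level of 105 alone, 159 after contact and 613 in the dual mycelia and a log2 ratio of 1.94. The most abundant member, the peptidyl-prolyl isomerase CL6245, had a level of 2149 alone, 1929 after contact and 1432 in the dual mycelia, a log2 ratio of -0.43.

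The member of this list that was 2-fold lower was Unigene2145, a vacuolar transporter chaperone (VTC1), which belongs to the complex that makes polyphosphate at the vacuole and is no heat shock protein. Its level was 11.7 alone, 65.5 after contact and 10.5 in the dual mycelia, a log2 ratio of -2.53, the lowest of all described genes with at least 10 FPKM. Unigene6122, an acid phosphatase, a secreted enzyme that frees phosphate, had a level of 10.4 alone, 54.2 after contact and 17 in the dual mycelia and a log2 ratio of -1.62. Both were several-fold higher after contact than alone and near the level alone in the dual library. Of the 18 genes of phosphate and sulfate acquisition, 1 was 2-fold higher and 2 were 2-fold lower, against 8.44% and 10.5% of all genes, and the abundant PHO88 homologue Unigene14316 had a level of 378 alone, 302 after contact and 351 in the dual mycelia and a log2 ratio of 0.21. Unigene9057, sulfate adenylyltransferase, the first enzyme of sulfate assimilation, had a level of 13.2 alone, 16.6 after contact and 58.5 in the dual mycelia, a log2 ratio of 1.76.

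Genes of the cell wall and of the surface polysaccharide were mostly at like levels. All 32 genes of capsule and nucleotide sugar synthesis lay within 2-fold, with a median log2 ratio of -0.25. Of all genes 81.0% did, and of those with at least 10 FPKM, as 27 of these 32 had, 91.0%. Their summed level was 5462 alone, 4960 after contact and 3924 in the dual library. The list also holds genes named for protein N-glycosylation (ALG13, ALG14 and dolichol mannosyltransferases). The most abundant was the phosphoglucomutase CL7227, which interconverts glucose phosphates, with a level of 1637 alone, 1627 after contact and 1218 in the dual mycelia and a log2 ratio of -0.42. Beta-1,2-xylosyltransferase, which adds xylose to the capsule glucuronoxylomannan in the related Cryptococcus neoformans, had in CL6962 a level of 199 alone, 166 after contact and 88.1 in the dual mycelia and in Unigene12658 one of 24.7 alone, 17.4 after contact and 8.61 in the dual mycelia, with log2 ratios of -0.91 and -0.93. CL3778, a mannose-1-phosphate guanyltransferase by name, which makes the GDP-mannose used for such polysaccharides and stood outside the list, had a level of 126 alone, 89.9 after contact and 35.4 in the dual mycelia and a log2 ratio of -1.32.

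Glucan-degrading enzymes showed a single large difference. Of 28 genes of chitin and glucan breakdown, 3 were 2-fold higher and 3 were 2-fold lower, shares near the 8.44% and 10.5% of all genes. CL4894, a glycoside hydrolase of family 55, whose known members cut beta-1,3-glucan, had a level of 2.09 alone, 0.98 after contact and 145 in the dual mycelia, and its ratio, 73.8-fold or 6.21 on the log2 scale, was the highest of all described genes with at least 10 FPKM. Its nearest protein came from Oidiodendron, an ascomycete. It had 1.33 FPKM alone, 0.64 FPKM after contact, 31.69 FPKM in the dual library and 0 in both A. stygium libraries. The assignment rule required a value near 0 there, so that value does not show its fungus of origin, which was not tested. The most abundant enzyme of the list, the glucan 1,3-beta-glucosidase Unigene10493, had a level of 722 alone, 596 after contact and 286 in the dual mycelia and a log2 ratio of -1.06. Of 13 genes of chitin and glucan wall synthesis 2 were 4-fold lower, against 2.62% of all genes, and of these Unigene17373, a chitin synthase, which polymerizes chitin, had a level of 14.3 alone, 24.1 after contact and 5.08 in the dual mycelia and a log2 ratio of -2.04. CL460, a chitin synthase regulatory factor by name, had a level of 12.5 alone, 14.6 after contact and 53.6 in the dual mycelia and a log2 ratio of 1.81.

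Plant cell wall breakdown and wood-oxidizing enzymes were mostly within 2-fold, as were most genes. Of 32 genes of plant cell wall breakdown, 29 lay within 2-fold. Of all genes 81.0% did, and of those with at least 10 FPKM 91.0%. The summed level of the 32 was 3189 alone, 2617 after contact and 1927 dual. All 5 genes of the list of laccases and wood-oxidizing enzymes lay within 2-fold. Most of that list's level came from CL5907, a riboflavin-aldehyde forming enzyme by name, with a level of 331 alone, 2818 after contact and 1709 in the dual mycelia and a log2 ratio of -0.72. It was far above its level alone in both interacting libraries.

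Carotenoid synthesis, a group of 6 genes chosen after its values were seen, had a median log2 ratio of -0.55, against -0.17 for all genes. The ratio was below 0 in every member, as is common where the median of all genes is below 0. All 6 reached 10 FPKM, and 2 were 2-fold lower, against 3.09% of all such genes. Unigene6276, the bifunctional lycopene cyclase and phytoene synthase, which makes the first colourless carotene and closes the rings, had a level of 67.2 alone, 89.8 after contact and 24.5 in the dual mycelia and a log2 ratio of -1.83. CL7243, a beta-carotene ketolase by name, which adds keto groups to the rings, had a level of 156 alone, 196 after contact and 56 in the dual mycelia and a log2 ratio of -1.79. The phytoene desaturase Unigene13260, which acts between the steps of phytoene synthesis and ring closure, had a level of 62.6 alone, 66.3 after contact and 55.2 in the dual mycelia and a log2 ratio of -0.26. The 2 genes past 2-fold were thus lower in the dual library than in either other library, and the other 4 were within 2-fold.

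In central metabolism, 33 of 39 genes of glycolysis and the citric acid cycle lay within 2-fold. Of all genes 81.0% did, and of those with at least 10 FPKM, as 36 of these 39 had, 91.0%. Unigene4127, the 2-oxoglutarate dehydrogenase of the citric acid cycle, had a level of 409 alone, 496 after contact and 171 in the dual mycelia and a log2 ratio of -1.53. CL3473, an E1 subunit of the same enzyme, had a level of 159 alone, 342 after contact and 182 in the dual mycelia and a log2 ratio of -0.90, and Unigene5526, its succinyltransferase subunit, one of 142 alone, 243 after contact and 122 in the dual mycelia and -0.99. The subunit shared with other dehydrogenase complexes, dihydrolipoyl dehydrogenase CL727, had a level of 345 alone, 511 after contact and 490.5 in the dual mycelia and a log2 ratio of -0.06. CL5208, glutaryl-CoA dehydrogenase, an enzyme of lysine and tryptophan breakdown, had a level of 731 alone, 936 after contact and 359 in the dual mycelia and a log2 ratio of -1.38. Enolase CL3712 was higher in the dual library, with a level of 992 alone, 735 after contact and 1554 in the dual mycelia and a log2 ratio of 1.08.

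Genes of storage sugars and polyols included several that were higher in the dual library. Of 26 genes of trehalose, mannitol, glycerol and glycogen, 7 were 2-fold higher and 3 were 2-fold lower, against 8.44% and 10.5% of all genes. With at least 10 FPKM 5 of 17 were higher and 0 lower, against 5.94% and 3.09% of all such genes. Trehalose phosphorylase, which splits trehalose with phosphate, had in Unigene18946 a level of 512 alone, 277 after contact and 790.5 in the dual mycelia and in CL347 one of 273 alone, 181 after contact and 405 in the dual mycelia, with log2 ratios of 1.51 and 1.16. CL4489, the glycogen debranching enzyme, had a level of 49.1 alone, 34.4 after contact and 83.3 in the dual mycelia and a log2 ratio of 1.25. For these 3 genes the level after contact was the lowest of the 3 libraries. CL3761, a trehalose-phosphate synthase, which makes trehalose, had a level of 194 alone, 325 after contact and 219 in the dual mycelia and a log2 ratio of -0.57.

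Lipid genes as a list did not stand apart, while single abundant members differed. Of 51 genes of sterol, fatty acid and sphingolipid synthesis, 5 were 2-fold higher and 2 were 2-fold lower, against 8.44% and 10.5% of all genes, with a median log2 ratio of -0.13. Unigene7500, the ceramide hydroxylase SCS7, the most abundant of them, had a level of 1519.6 alone, 1047 after contact and 2386 in the dual mycelia and a log2 ratio of 1.19. CL3401, the sphingolipid C4-hydroxylase SUR2, had a level of 350.0 alone, 227 after contact and 714 in the dual mycelia and a log2 ratio of 1.65. Both hydroxylate sphingolipids, at different carbons, and both followed the same order, lowest after contact and highest in the dual library. CL2845, an acyl-CoA desaturase, which puts a double bond into fatty acids, had a level of 77.8 alone, 111 after contact and 333 in the dual mycelia and a log2 ratio of 1.57. CL3787, a phosphatidylserine decarboxylase, had a level of 58.7 alone, 47.8 after contact and 19.5 in the dual mycelia and a log2 ratio of -1.25.

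Lists of growth genes had medians near that of all genes and held few large differences. Of all genes, 81.0% lay within 2-fold, and of those with at least 10 FPKM, 91.0% did. Of 73 cytosolic ribosomal proteins, 69 lay within 2-fold, and their summed level was 66578 alone, 52151 after contact and 43853 in the dual library. Of 96 genes of the cell cycle and DNA replication, 91 lay within 2-fold, with a median log2 ratio of -0.26. The most abundant of these, CL6549, a spindle assembly checkpoint kinase by name, had a level of 2161 alone, 3153 after contact and 1142 in the dual mycelia and a log2 ratio of -1.46, and its 3 contigs had log2 ratios from -1.56 to -1.40. Ribosome biogenesis had 53 of 54 genes within 2-fold, translation factors and tRNA synthetases 75 of 78, and the proteasome, ubiquitin and autophagy list 101 of 105. One exception was CL5561, a mitochondrial translation initiation factor IF-2 by name, with a level of 4.01 alone, 4.5 after contact and 50.2 in the dual mycelia and a log2 ratio of 3.22.

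Secretion genes were mostly within 2-fold, 110 of 117, against 81.0% of all genes and 91.0% of those with at least 10 FPKM. Single members of the secretory pathway and of protein breakdown differed. CL1929, a GPI anchor biosynthesis protein by name, had a level of 12895 alone, 5936 after contact and 2796 in the dual mycelia and a log2 ratio of -1.09, so its order was alone, after contact, dual from high to low. Unigene6749, endoplasmic reticulum oxidoreductin, which forms disulfide bonds in secreted proteins, had a level of 373 alone, 276 after contact and 787 in the dual mycelia, a log2 ratio of 1.51. Among 59 proteases, 53 lay within 2-fold, against 81.0% of all genes and 91.0% of those with at least 10 FPKM. Unigene9568, carboxypeptidase D, the most abundant of them, had a level of 1336 alone, 1331 after contact and 404 in the dual mycelia and a log2 ratio of -1.72, with nearly equal levels alone and after contact.

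Regulatory genes were mostly within 2-fold, as were 81.0% of all genes and 91.0% of those with at least 10 FPKM. Of 57 transcription factors, 55 lay within 2-fold, with a median log2 ratio of 0.05, and of 285 genes of kinase, cAMP, G-protein and calcium signalling, 262 did. CL5382, a JmjC-domain histone demethylase by name, had a level of 37.1 alone, 62.4 after contact and 529 in the dual mycelia and a log2 ratio of 3.07. Its listed domain is of the aldo/keto reductase family and its KOG class is energy production, so the name may not describe it. It was 1 of 61 genes found by names of histones and chromatin, of which 59 lay within 2-fold. Unigene7329, named for the DNA helicase pfh1, had a level of 3.69 alone, 5.44 after contact and 167 in the dual mycelia and a log2 ratio of 4.71, and CL7675, a SET-domain protein, a kind that often methylates histones, one of 3.25 alone, 4.81 after contact and 81 in the dual mycelia and 3.82. In mating and sporulation 35 of 37 genes lay within 2-fold, and the pheromone receptor Unigene5539 had a level of 286 alone, 309 after contact and 231 in the dual mycelia and a log2 ratio of -0.42.

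Several transposable element genes were higher in the dual library. Of 18 members, 8 were 2-fold higher, against 8.44% of all genes, 5 of them 4-fold, against 3.34%, and 0 were 2-fold lower, against 10.5%, with a median log2 ratio of 0.33. With at least 10 FPKM the median of 11 members was 0.01, and 4 were 2-fold higher, against 5.94% of all such genes. Unigene19097, a retrotransposon nucleocapsid protein, had a level of 0.283 alone, 1.61 after contact and 97.2 in the dual mycelia and a log2 ratio of 5.23. CL1085, of the same name, had a level of 6.76 alone, 21.8 after contact and 243 in the dual mycelia and a log2 ratio of 3.42. The most abundant member, the gag-pol polyprotein CL134, had a level of 1804 alone, 1849 after contact and 1322 in the dual mycelia and a log2 ratio of -0.48, and the summed level of the list was 2651, 2755 and 2694 alone, after contact and dual. Copies of such elements share sequence, so reads can be split between them.

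**Figure D5:**
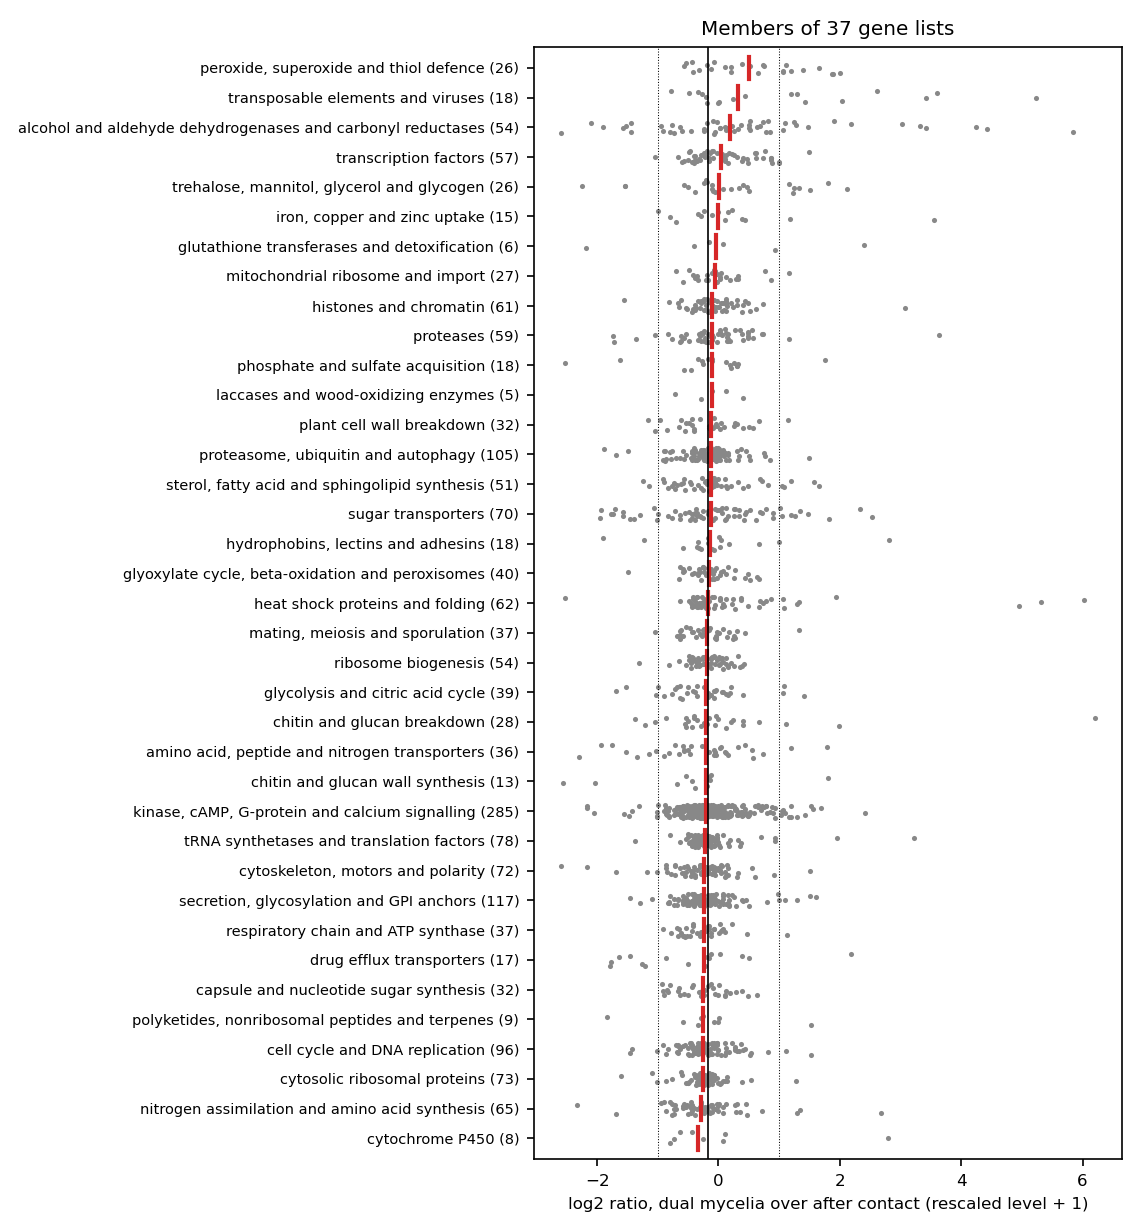
log2 ratio of dual to after contact (x axis) for every member of 37 gene lists of T. fuciformis, 1 grey point per gene, with the list's median as a red bar and its number of members in brackets. The solid line marks the median of all 8587 genes, -0.17, and the dotted lines 2-fold. The list of peroxide, superoxide and thiol defence has the highest median, 0.51, and cytochrome P450 the lowest, -0.34 over 8 genes.

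By the KOG classes of the deposited annotation, which do not depend on the words of a name, 352 of 5088 genes with a class (6.92%) were 2-fold higher and 231 (4.54%) 2-fold lower. The class of secondary metabolism had 29 of 159 genes (18.2%) higher and 17 (10.7%) lower. Energy production had 29 of 232 (12.5%) higher and 13 (5.60%) lower, and defence 26 of 213 (12.2%) higher and 12 (5.63%) lower. At the other end, replication and repair had 3 of 177 (1.69%) in each direction, and trafficking and secretion 3 of 266 (1.13%) higher and 6 (2.26%) lower. A gene can stand in more than 1 class, and CL7112 is in the defence class.

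Most of the 12 most abundant genes of each library compared had no informative name. CL4679 was the most abundant T. fuciformis gene in both libraries compared, with a level of 16382 alone, 29407 after contact and 18454 in the dual mycelia and a log2 ratio of -0.67. CL3181, with no database hit, was second in the dual library, with a level of 6087 alone, 3831 after contact and 17976 in the dual mycelia and a log2 ratio of 2.23. CL6552, with a ricin-type lectin domain, a fold that binds sugars, had a level of 5425 alone, 9898 after contact and 16596 in the dual mycelia and a log2 ratio of 0.75. The same domain is carried by Unigene13089 and Unigene13091, which had levels of 3662 alone, 6181 after contact and 9807 in the dual mycelia and of 1041 alone, 1952 after contact and 3724 in the dual mycelia, with log2 ratios of 0.67 and 0.93. All 3 lectin-domain genes were higher after contact than alone and higher again in the dual library, each step under 2-fold. Unigene11669, a cytochrome P450 named for DIT2 and the most abundant of the 8 in that list, had a level of 311 alone, 1569 after contact and 1646 in the dual mycelia and a log2 ratio of 0.07, so it stood well above its level alone in both interacting libraries.

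The 20 described genes with the highest ratios had at most 0.28 FPKM in the A. stygium libraries, and the 20 with the lowest at most 0.91 FPKM. Of the 287 genes 4-fold higher, 224 (78.0%) were listed at 0 in both A. stygium libraries, against 54.4% of all genes. The assignment rule keeps A. stygium values low, so neither result shows which fungus these genes belong to. Nearest proteins of the 287 were of the Tremellomycetes in 66.5% of those with a hit, against 84.9% for all. They were of the Xylariales genera counted in 1 of 167, and other ascomycetes were not counted. Among the 20 highest described genes the nearest protein was of an ascomycete for CL4894 (Oidiodendron), Unigene3062 (Fusarium), Unigene1730 (Colletotrichum), CL2994 (Beauveria) and CL5561 (Blastomyces). For the others of the 20 it was of a basidiomycete. For Unigene3503, an unnamed gene, it was of Exophiala, an ascomycete. Whether some of the 287 are A. stygium genes that are used only in the mixture was not tested. Unigenes just past the assignment limit were weak in the dual library: the 254 with 1 to 1.1 FPKM had a median of 0 FPKM there, and the 242 just below it, with 0.9 to 1 FPKM, a median of 0. Few unigenes lay near the ratio limit, 2 from 10 to 12 times and 4 from 8 to 10 times. Of 714 contigs that were 4-fold different on their own within genes of several contigs, 446 (62.5%) belonged to a gene whose sum lay within 2-fold and 150 to a gene 4-fold different in the same direction.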

How the data were processed

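Mycelial RNA was extracted with Trizol and sequenced on an Illumina platform, per the labels' protocols and the series' design text. The deposited table, 1 for all libraries, lists de novo assembled unigenes, each with database hits and an FPKM value per library, per the file headers. Not given in the sources used here: assembler, aligner and counter. The table held 0 further value columns. FPKM values were used as deposited, with no read counts and no depth.

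The members and gene lists were chosen with earlier results of these data known. T. fuciformis unigenes were rescaled to a sum of 1000000 per library, and contigs of 1 cluster were summed where assigned to T. fuciformis. A sum over related contigs can overstate a level when contigs are variants of 1 transcript. The low-value filter was 1 FPKM in 1 of the 2 libraries and the pseudocount was 1. Descriptions are names of the nearest Nr protein or, where that was uninformative, of a SwissProt protein with an e-value of at most 1e-20, and are not tested functions. The 37 lists are word searches in these names, so some hold misfits and share genes. A further 9 groups were chosen after values were seen.

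Named genes were described genes that reached 10 FPKM in either library. They were the 20 with the highest and the 20 with the lowest ratios, 1 per description. From each list came the most abundant member and, among those of at least 10 FPKM, the ones with the highest and lowest ratio. The text leaves some out. It adds unnamed genes of at least 100 FPKM, the most abundant genes, members of the 9 groups and other list members past or near 2-fold, all picked after their values were seen.

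Alternatives were no rescaling, scaling to a median ratio of 0, other pseudocounts and filters, single contigs, stricter assignment and a 2-fold limit. The script was tested on simulated data. Python 3.11.15, pandas 2.3.3, numpy 2.4.6 and matplotlib 3.10.9 were used. No genome was used, so no positions or sequences are given.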

Additional observations from a re-analysis of the deposited data

Results flagged for a closer look

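A signal appeared in unigenes that no comparison used. In all, 485 unigenes were below 1 FPKM in all 4 libraries of a single fungus and so belonged to neither, yet had at least 10 FPKM in the dual library, with a median of 17.9 and a highest value of 653 FPKM. They held 2.31% of the summed FPKM of that library. Of the 485, 414 (85.4%) had no hit in 5 databases. Of the 67 with an Nr hit, 40 had their nearest protein in the Tremellomycetes and 3 in the Xylariales. At 0 in all 4 single-fungus libraries were 203 of them, while 223 had a value above 0 in T. fuciformis libraries alone and 59 in an A. stygium library. Which fungus, if either, they belong to was not tested.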

How the results depend on the processing

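Against 287 genes 4-fold higher, 225 lower and a median log2 ratio of -0.17, no rescaling gave 79, 1173 and -1.54. Scaling to a median ratio of 0 left the counts within 1.5 times and moved the median to -0.06. A pseudocount of 0.1 gave 623 lower genes, and a pseudocount of 10 gave 141 higher and 6 lower. A filter of 10 FPKM gave 156 higher and 21 lower, and a filter of 10 on the rescaled level, chosen after seeing the data, gave 31 lower. Each contig on its own gave 536 higher and 609 lower, and a 2-fold limit 725 and 904. No filter, stricter assignment and clusters without contigs of A. stygium left all counts within 1.5 times. Over the contigs listed at 0 in both A. stygium libraries the log2 ratio of CL4241 was -1.43 and that of CL975 was 0.68, because that choice drops the contig that held nearly all of their level. In 436 of 444 recomputed list medians the distance from the median of all genes moved by at most 0.3. Of the lists whose median lay 0.3 or more from that of all genes, 0 changed sign, while lists nearer to it did in places. Of the 48 named genes past 4-fold, 15 were under 4-fold without rescaling, 5 with a pseudocount of 10 and 5 with scaling to a median of 0. Most 4-fold lower calls rest on values under 10 FPKM, for which no interval can be given, since depth is unknown. No paired analysis was possible because each condition had 1 library, and none could be left out.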
